A study of Mus musculus with 6 samples.

Results

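The genes described here are those of the cGAS-STING pathway, taken from the deposited table by gene symbol. The rule listed 8 genes, namely cGAS, STING, Tbk1, Ikbke, Irf3, Trex1, Samhd1 and Enpp1. Of these, 7 were found among the 25251 genes of the table, with cGAS listed as Mb21d1 and STING as Tmem173. Trex1 was not analysed here. RNA was measured by bulk sequencing in 6 subcutaneous tumours of CT26, a mouse colon carcinoma line, grown in BALB/c mice labelled as wild type. The 3 irinotecan samples came from mice given CPT-11, a prodrug of a topoisomerase I inhibitor, intraperitoneally at 25 mg/kg every 4 days, starting from tumours of 100 mm3. The 3 control samples came from solvent-treated mice. Whether samples of a group were separate mice is not labelled, and the p-values therefore reflect sample-to-sample spread that may be technical. The series' own description speaks of duplicates, whereas its labels list 3 samples in each group, and n = 3 follows the labels. Neither their age nor the interval between last dose and sampling was known.

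The pathway detects DNA where it should not be, in the cytosol. The enzyme cGAS binds double-stranded DNA and makes the dinucleotide cGAMP, which binds STING on the endoplasmic reticulum. STING then moves to the Golgi and recruits the kinase TBK1, or its close relative IKK-epsilon, which phosphorylates IRF3 and so turns on type I interferon and chemokine genes. Other members set the supply of DNA and of cGAMP: TREX1 degrades cytosolic DNA, SAMHD1 hydrolyses deoxynucleotides and acts at stalled replication forks, and ENPP1 hydrolyses cGAMP outside the cell. In tumours, DNA damage and micronuclei are known sources of DNA that cGAS can bind.

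The transcripts of the sensor, the adaptor, both kinases and IRF3 showed no difference between the groups that exceeded the spread between samples. Samhd1 was 1.41-fold higher by the group means and Enpp1 was at 0.574 of the control mean. Those were the only members whose 3 irinotecan libraries lay wholly on one side of the 3 controls, and neither passed the threshold over all genes. Of all 14639 genes tested, 6.68% lay wholly above the controls and 7.89% wholly below.

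Upstream sequences are shown for Samhd1 and Enpp1, the members whose groups did not overlap, and for Mb21d1, the member with the smallest spread. They are from RefSeq on GRCm38.p6, written 5′ to 3′ on the gene's own strand (the minus strand for all 3), and they stop before both the RefSeq start and the deposited gene span. RefSeq windows of 300 bases were found for 6 of the 7 genes, and Tmem173 had none. Capitals mark matches to the letters searched.
Samhd1, chr2:157135266-157135346: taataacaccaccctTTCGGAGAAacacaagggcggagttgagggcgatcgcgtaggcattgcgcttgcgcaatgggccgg
Enpp1, chr10:24712160-24712409: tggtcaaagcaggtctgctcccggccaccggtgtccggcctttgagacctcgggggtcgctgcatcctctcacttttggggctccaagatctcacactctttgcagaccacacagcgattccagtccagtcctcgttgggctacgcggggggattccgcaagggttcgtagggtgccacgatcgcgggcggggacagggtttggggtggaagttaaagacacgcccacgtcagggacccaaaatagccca
Mb21d1, chr9:78443238-78443487: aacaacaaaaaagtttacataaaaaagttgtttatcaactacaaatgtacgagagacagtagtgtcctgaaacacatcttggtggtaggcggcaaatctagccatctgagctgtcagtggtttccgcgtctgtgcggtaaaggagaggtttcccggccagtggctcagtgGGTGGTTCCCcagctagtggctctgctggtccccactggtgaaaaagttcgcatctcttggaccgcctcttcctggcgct
Both strands of each 300-base window were searched for GAAANNGAAA (the core of the interferon-stimulated response element), TTCNNNGAA (the core of the interferon-gamma-activated site), GGGANNNNCC (a core of NF-kB sites) and CACGTG (an E-box). The first was found in none of the 6 windows and in 3.44% of all 32851 RefSeq windows. TTCNNNGAA, which reads the same on both strands, was found for Samhd1 alone, as TTCGGAGAA at positions -235 to -227 from the RefSeq start, and in 8.30% of all windows. GGGANNNNCC was found for Mb21d1 alone, on the opposite strand, at positions -80 to -71, and in 20.7% of all windows. CACGTG was found for Tbk1 alone, from position 5 to 10, and in 7.15% of all windows. No match overlapped another. These are matches of letters and not shown binding sites.

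Library depth was even, at 13940650 to 15656894 recovered reads. One library stood apart, since irinotecan replicate 1 had Pearson correlations across genes of 0.932 to 0.941 with the other 5, while the remaining 10 pairs reached 0.975 to 0.985. The 563 tested genes with transcripts above 60% GC lay at a median of -0.76 (log2) from their control means in this library and between -0.09 and 0.08 in the others. Values without this library are given beside the results it moves most. Of the carcinoma markers, the keratin Krt20 had 1608 to 2098 normalized counts, but Epcam was at 0 in 5 of the 6 libraries and Cdx2, Vil1 and Krt7 had at most 4.84. The group difference was tested with limma on log2(normalized count + 1), on which scale all log2 fold changes are given.

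Compared per kilobase of the deposited gene length, the level in controls was highest for Tmem173, with 338 ± 22.0 normalized counts per kb (SD, n = 3). Tbk1 followed with 312 ± 31.9, Samhd1 with 275 ± 41.4, Irf3 with 174 ± 19.5, Mb21d1 with 128 ± 4.68, Ikbke with 58.1 ± 5.91 and Enpp1 with 9.08 ± 0.490 normalized counts per kb. The control libraries of Tmem173 and Tbk1 overlapped in this level, as did those of Tbk1 and Samhd1, while all later neighbours in the order were apart. With irinotecan Samhd1 had the highest mean level, 388 ± 34.8 normalized counts per kb, and its libraries still overlapped those of Tbk1 (337 ± 41.3). The irinotecan levels of Irf3 ran from 102 to 219 normalized counts per kb and enclosed those of Mb21d1, which ran from 128 to 132. The genes of this pathway thus ranged in level per kb from Enpp1, above 11.4% of the genes tested, to Tmem173, above 83.8%. This order rests on the deposited gene length, such as 9150 bases for Samhd1 and 2302 for Tmem173. How that length was defined is not known here. Before division by length the control mean was highest for Samhd1, at 2516 normalized counts, against 1221 for Tbk1 and 778 for Tmem173.

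**Figure D1:**
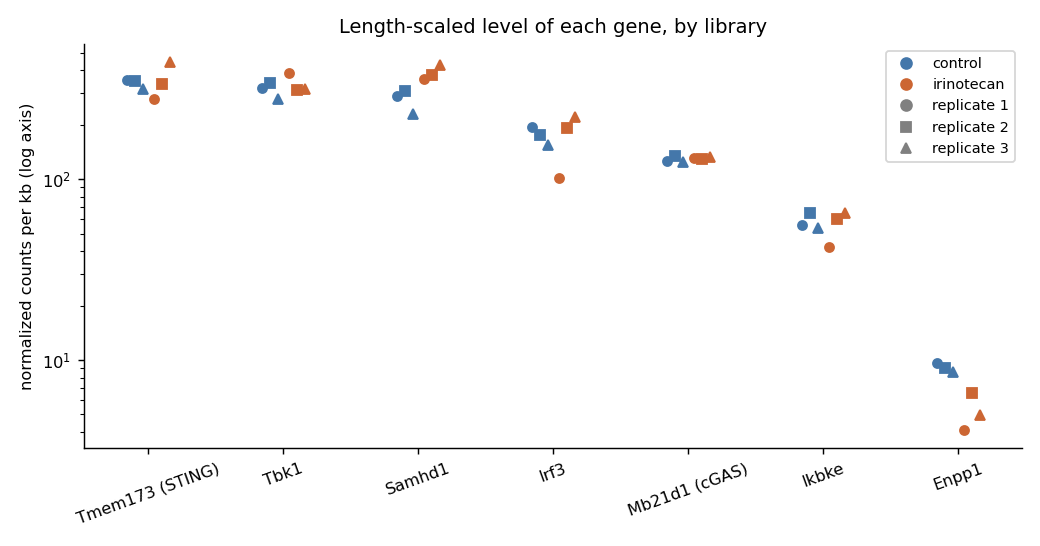
Normalized counts per kilobase (log axis) of the 7 genes in each of the 6 libraries, with genes ordered by their control mean. Blue points are controls, orange points irinotecan, and marker shapes give the replicate number. Enpp1 lies lowest, at 4.10 to 9.57 normalized counts per kb, and Tmem173, Tbk1 and Samhd1 lie highest.

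The DNA sensor Mb21d1 was the steadiest member. Its normalized counts were 521, 551 and 515 in controls and 539, 529.7 and 545 with irinotecan. All irinotecan values lay within the control range. The means were 529 ± 19.3 and 538 ± 7.83 (SD, n = 3 each), and the log2 fold change was 0.03 (SE 0.131, 95% interval -0.27 to 0.32, limma adjusted p = 0.957). As a fold this unadjusted interval ran from 0.826 to 1.25. Irinotecan replicate 1 did not stand apart for this gene, and the log2 fold change was 0.02 without it. The gene lies on chromosome 9 from 78430526 to 78443237 (GRCm38, minus strand).

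Tmem173, which encodes the adaptor STING, differed among the irinotecan samples more than between the groups. Its normalized counts were 815, 799 and 720.4 in controls and 638, 771 and 1018 with irinotecan. The irinotecan libraries held both the lowest and the highest value of the 6. The means were 778 ± 50.7 and 809 ± 193 (SD, n = 3 each), with a log2 fold change of 0.03 (SE 0.186, 95% interval -0.39 to 0.46, limma adjusted p = 0.961). The direction turned without irinotecan replicate 3 (-0.15) and without control replicate 3 (-0.02), and without irinotecan replicate 1 the value was 0.19. In irinotecan replicate 1 the gene lay at -0.28 from the control mean on the log2 scale. The smooth trend fitted over all genes at its GC content (51.7%) and length, from the mean of the 6 libraries, was -0.26 there. In the controls that trend was 0.10, 0.04 and 0.01. Tmem173 lies on chromosome 18 from 35733678 to 35740554 (minus strand).

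The kinases showed no common direction. Tbk1 encodes the kinase that STING recruits, and its normalized counts were 1247, 1329.9 and 1085 in controls and 1503, 1219 and 1227 with irinotecan. Only irinotecan replicate 1 lay above the controls, and the other irinotecan libraries lay within their range. The log2 fold change of Tbk1 was 0.11 (SE 0.147, 95% interval -0.23 to 0.45, limma adjusted p = 0.826), and 0.01 without that library. Ikbke encodes IKK-epsilon, the inducible relative of TBK1. Its normalized counts were 505, 584 and 483 in controls and 382, 545 and 586 with irinotecan. Irinotecan replicate 1 was the lowest of the 6 libraries, and irinotecan replicate 3 the highest. The log2 fold change of Ikbke was -0.07 (SE 0.194, 95% interval -0.52 to 0.37, limma adjusted p = 0.912), and it turned to 0.11 without irinotecan replicate 1. For Ikbke the GC and length trend from the mean of the 6 libraries was 0.01 in that library, and 0.04, 0.04 and -0.06 in the controls. The gene itself lay at -0.45 from the control mean in irinotecan replicate 1. Tbk1 lies on chromosome 10 from 121546455 to 121586787 and Ikbke on chromosome 1 from 131254343 to 131279606, both on the minus strand. The antisense gene Gm28913 overlaps Ikbke and had 12.3 to 40.5 normalized counts. The strand setting of the counting is not known, so reads of the pair cannot be told apart.

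Irf3 encodes the transcription factor that TBK1 activates by phosphorylation, a step that RNA levels do not report. Its normalized counts were 667, 600.1 and 533 in controls and 351, 661 and 755 with irinotecan. As for Ikbke, irinotecan replicate 1 was the lowest and irinotecan replicate 3 the highest of the 6. The means were 599.8 ± 67.0 and 589 ± 211 (SD, n = 3 each), and the log2 fold change was -0.09 (SE 0.275, 95% interval -0.72 to 0.54, limma adjusted p = 0.923). Its direction turned without irinotecan replicate 1 (0.24) and after removal of the GC and length trend (0.10). Irf3 had the highest transcript GC content of the 7 genes, 57.5%, and lay at -0.76 from the control mean in irinotecan replicate 1. The trend at its GC content and length, from the mean of the 6 libraries, was -0.45 there and 0.16, 0.12 and 0.0029 in the controls. Irf3 lies on chromosome 7 from 44997648 to 45002848 (plus strand) and shares 1065 bases with the opposite-strand gene Bcl2l12, which had 89.3 to 129.1 normalized counts.

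**Figure D2:**
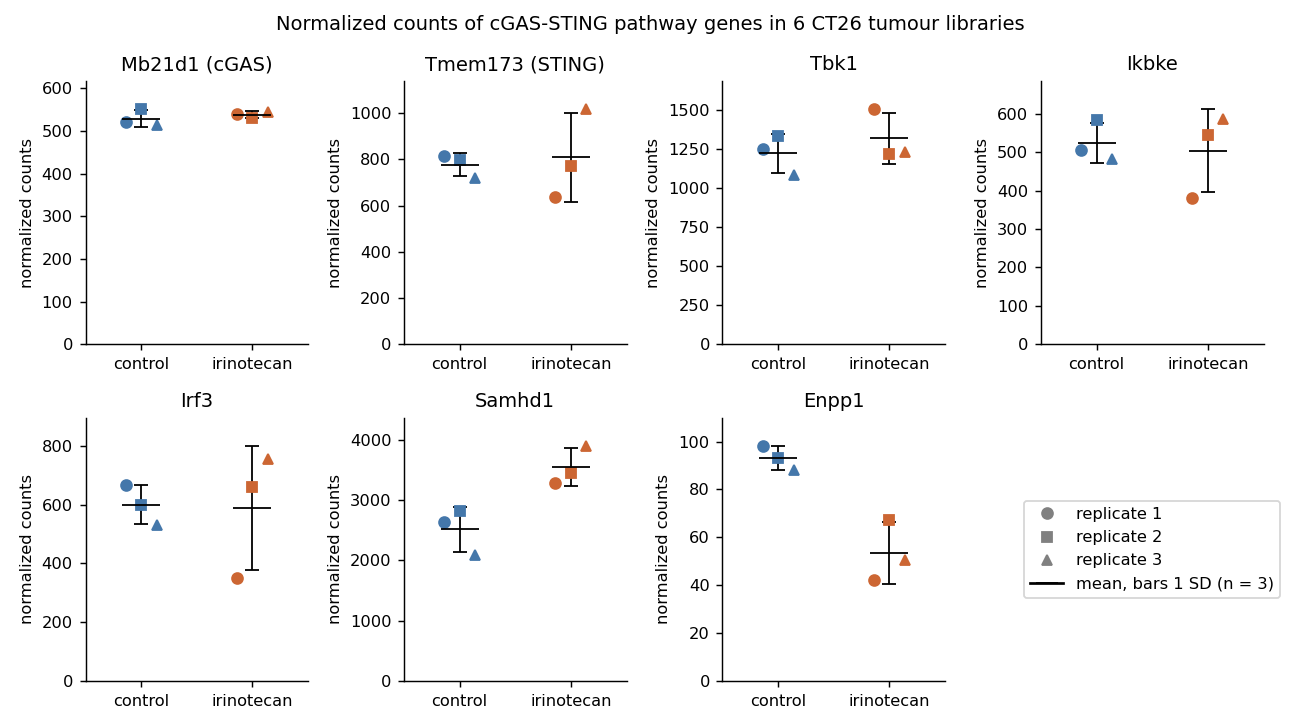
Normalized counts of the 7 genes in the 3 control and 3 irinotecan libraries, each axis starting at 0. Points are libraries, with shapes for the replicate number, and horizontal marks and bars give the mean and 1 SD. The groups are apart for Samhd1 (higher with irinotecan) and Enpp1 (lower), and overlap for the other 5 genes.

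Samhd1 had higher values in every irinotecan library. Its normalized counts were 2641, 2816 and 2091 in controls and 3286, 3454 and 3902 with irinotecan. The lowest irinotecan library lay above the highest control. The means were 2516 ± 378 and 3547 ± 319 (SD, n = 3 each), which is 41.0% higher by the means, giving a log2 fold change of 0.50 (SE 0.154, unadjusted 95% interval 0.15 to 0.85). The unadjusted p was 0.0106 and the limma adjusted p 0.743, so the difference did not pass over all genes. The log2 fold change was 0.56 without irinotecan replicate 1 (limma adjusted p = 0.154). It was 0.42 once the trend on GC and length was removed and 0.38 without control replicate 3, the lowest control, and adjusted p-values over the alternatives ran from 0.0889 to 0.989. In the authors' deposited table Samhd1 has a log2 fold change of 0.50 and an adjusted p of 0.467. The gene lies on chromosome 2 from 157097533 to 157135265 (minus strand).

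Enpp1 had lower values in every irinotecan library. Its normalized counts were 98.2, 93.1 and 88.1 in controls and 42.1, 67.4 and 50.7 with irinotecan. The controls lay close together and the groups did not overlap. The means were 93.1 ± 5.02 and 53.4 ± 12.9 (SD, n = 3 each), with a log2 fold change of -0.82 (SE 0.263, unadjusted 95% interval -1.42 to -0.21). The unadjusted p was 0.0139 and the limma adjusted p 0.743. Counts were low, at 41 to 105 recovered reads per library. The log2 fold change was -0.66 without irinotecan replicate 1 (limma adjusted p = 0.414) and -0.93 once the trend on GC and length was removed, and adjusted p-values over the alternatives ran from 0.282 to 0.989. In the authors' deposited table Enpp1 has a log2 fold change of -0.80 and an adjusted p of 0.630. It lies on chromosome 10 from 24637914 to 24712159 (minus strand).

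Over the 14639 genes tested, limma called 0 (0%), with 393 genes higher (2.68%) and 451 lower (3.08%) at an unadjusted p under 0.05. edgeR and limma-voom called 0 genes, and DESeq2 called 52 (0.355%). None of the 7 genes was called by any of these tools. Of the 7 genes, 1 lay wholly above the controls and 1 wholly below, against 6.68% and 7.89% of all genes tested. Their median log2 fold change was 0.03, with 4 of 7 positive, while over all genes tested it was -0.01, with 48.2% positive. Without irinotecan replicate 1 the median was 0.11, with 6 of 7 positive, against a median of -0.0023 and 49.6% over all genes.

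**Figure D3:**
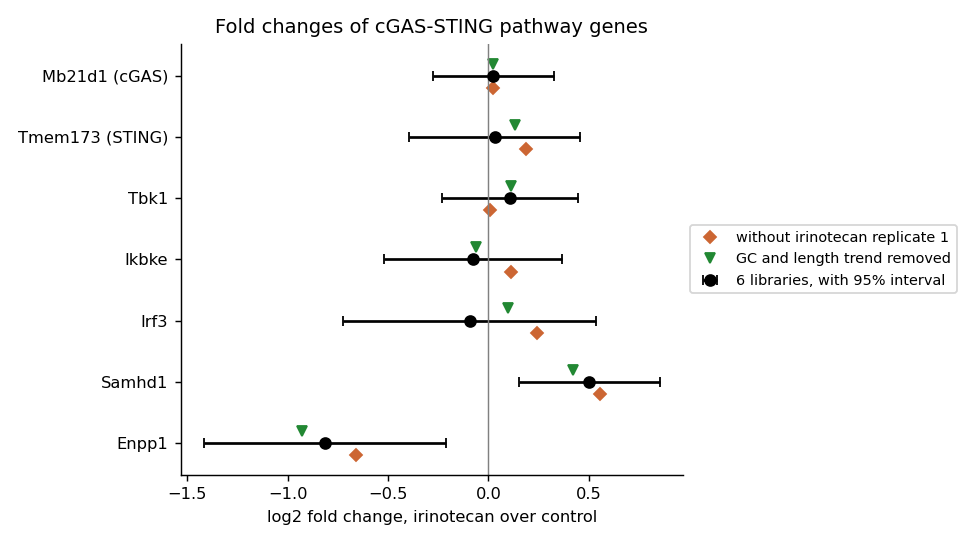
Log2 fold changes (irinotecan over control) of the 7 genes. Black points are the values from 6 libraries with their unadjusted 95% intervals, orange diamonds the values without irinotecan replicate 1, and green triangles those with the GC and length trend removed. Samhd1 (0.50) and Enpp1 (-0.82) keep their sides in all 3, whereas Irf3 and Ikbke change sides without that library.

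Ratios within a library do not depend on how libraries were scaled. The ratio of Enpp1 to Mb21d1 sets the transcript of the cGAMP hydrolase against that of the cGAMP synthase. It was 0.189, 0.169 and 0.171 in controls and 0.0781, 0.127 and 0.0929 with irinotecan, in normalized counts. All irinotecan libraries lay below all controls, and the mean log2 ratio differed by -0.84 (exact permutation test, two-sided, p = 0.10, or 0.20 adjusted over the 2 ratios tested). With 3 against 3 samples 0.10 is the smallest p that this test can give. Without irinotecan replicate 1 the mean log2 ratio of Enpp1 to Mb21d1 differed by -0.68. Mb21d1 was level between the groups, so this ratio largely repeats the difference of Enpp1. The ratio of Ikbke to Tbk1, the 2 kinases, was 0.405, 0.439 and 0.446 in controls and 0.254, 0.447 and 0.477 with irinotecan. One irinotecan library lay below and the others above all controls, and the mean log2 ratio differed by -0.18 (exact permutation p = 1.0). Without irinotecan replicate 1 that difference was 0.10.

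**Figure D4:**
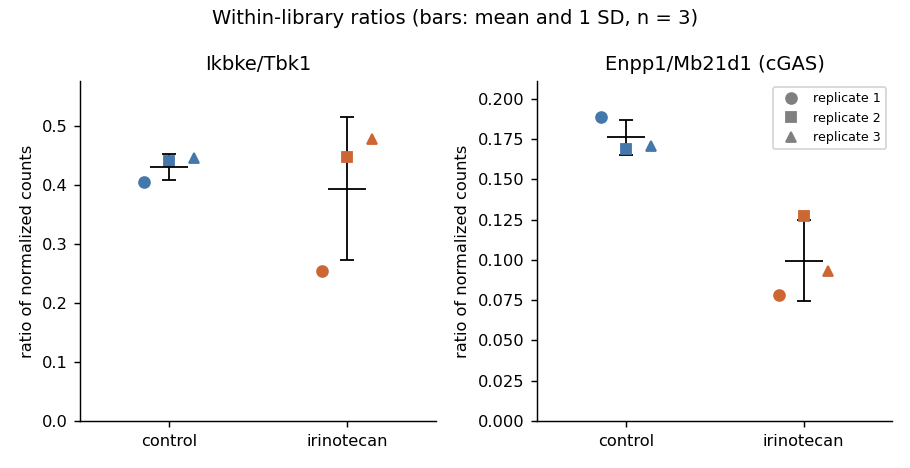
Ratios of normalized counts within each library, Ikbke to Tbk1 and Enpp1 to Mb21d1, for 3 control and 3 irinotecan libraries, with axes from 0. Points are libraries, and bars give the mean and 1 SD. For Enpp1 to Mb21d1 the controls are at 0.169 to 0.189 and the irinotecan libraries at 0.0781 to 0.127.

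Values of cell type markers are given beside these genes, and no tested marker was called by limma. In bulk samples fewer cells of a type and less RNA per cell cannot be told apart. Of the 8 endothelial markers 1 had a positive log2 fold change, and their summed normalized counts were 2391 to 2763 in controls and 1508 to 2075 with irinotecan. The macrophage markers, positive in 0 of 10, summed to 26567 to 28878 in controls and 12098 to 28297 with irinotecan, the lowest sum being that of irinotecan replicate 1. Without it 3 of 10 macrophage markers were positive, and their median log2 fold change went from -0.38 to -0.07. Neutrophil markers, positive in 0 of the 5 tested, summed to 538 to 686 and 281 to 325. The 8 fibroblast markers, 4 of them positive, summed to 31064 to 42575 and 35709.6 to 39733. The 12 T cell markers, 7 of them positive, summed to 397 to 571 in controls and to 379, 745 and 614 in irinotecan replicates 1, 2 and 3, with Cd8b1 and Cd5 at 0 in irinotecan replicate 1. Without that library all 12 T cell markers were positive, and their median log2 fold change went from 0.17 to 0.37. All 5 skeletal muscle markers were positive, with sums of 23.0 to 312 and 109.9 to 678, with Myh4 at 0 in control replicate 2 and Ckm at 0 in that library and in irinotecan replicate 1. Dendritic cell markers summed to 227 to 295 and 275 to 341, but only 2 of the 6 were positive, with a median log2 fold change of -0.82. Without irinotecan replicate 1, 3 dendritic cell markers were positive and their median was -0.06. The summed B cell markers were 22.3 to 39.3 and 20.3 to 28.9, those of NK cells 57.1 to 70.1 and 62.8 to 101.1. Adipocyte markers summed to 242 to 409 and 106 to 369.9, with Adipoq at 0 in all 3 irinotecan libraries and in control replicate 3. Of 5 markers listed for each, only 1 was tested for B cells, 2 for NK cells and 1 (Fabp4) for adipocytes. The others were absent or had a mean below 10 normalized counts, so these 3 sums rest on few genes. The part of these cell types in the values of Enpp1, Samhd1 and the interferon-inducible genes was not tested.

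Around these genes, 136 further pathway genes in 9 lists were examined, of which 130 were in the table and 124 had a mean of at least 10 normalized counts. None was called by limma. At an unadjusted p under 0.05, 9 were higher (7.26%) and 2 lower (1.61%), against 2.68% and 3.08% of all genes. The lists were chosen with earlier results of these data known, so these shares only describe the lists. Groups that did not overlap were found for 8 higher (6.45%) and 9 lower (7.26%), close to the shares over all genes. Their median log2 fold change was 0.05. The genes on the higher side included Trim56, Usp18, Ifih1, Dhx58, Irf7, Stat2, Cxcl10 and Oasl2, each of these known as interferon-inducible, and the 2 on the lower side were Rhbdf2 and Nfkbia. The limma adjusted p of each was 0.743. In 8 of the 9 genes control replicate 3 was the lowest library, and in 7 irinotecan replicate 3 was the highest. Without control replicate 3 the count on the higher side was 1 of 124, with 1.41% of all genes, and without irinotecan replicate 1 it was 14 of 124, with 4.34% of all genes. It was 3 (2.42%, against 1.26% of all genes) without control replicate 1 and 14 (11.3%, against 2.32%) without control replicate 2. Without irinotecan replicate 2 it was 6 (4.84%, against 3.89%), and without irinotecan replicate 3 it was 4 (3.23%, against 2.61%). On the lower side these counts ran from 1 to 6 (0.8% to 4.8%, against 1.1% to 5.3% of all genes). Only without irinotecan replicate 3 was the lower-side share of the lists (4.84%) above that of all genes (4.55%).

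Of the 9 genes of cytosolic DNA removal, 7 were tested and 4 had a positive log2 fold change (median 0.02). Without irinotecan replicate 1 these were 6 of 7, with a median of 0.24, and with any 1 library left out the median ran from -0.15 to 0.24. Dnase1, a secreted nuclease, had 65.4, 103.5 and 58.1 normalized counts in controls and 125, 100.2 and 105 with irinotecan (log2 fold change 0.58, SE 0.278). Adar, which edits double-stranded RNA, had a log2 fold change of 0.36 (SE 0.197), or 0.18 without irinotecan replicate 1, its highest library. Of the 13 cofactors and restraints of cGAS, 12 were tested and 8 were positive (median 0.09, or 0.03 without irinotecan replicate 1). The ubiquitin ligase Trim56 had 1729, 1804 and 1524 normalized counts in controls and 3191, 1775 and 2341 with irinotecan. Its log2 fold change of 0.49 (SE 0.210) was 0.28 without irinotecan replicate 1, its highest library. Parp1, a DNA damage sensor, had 1600 to 1719 normalized counts in controls and 1759 to 1998 with irinotecan (SE 0.122 for a log2 fold change of 0.15, or 0.09 without irinotecan replicate 3), without overlap of the groups.

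Besides Enpp1, 11 genes of cGAMP transport and hydrolysis were listed and 8 tested. Of these, 3 had a positive log2 fold change (median -0.11), and 1 did without irinotecan replicate 1 (median -0.12). Slc19a1, the folate carrier that also imports cGAMP, had 512, 397 and 578 normalized counts in controls and 351, 416 and 372 with irinotecan (log2 fold change -0.37, SE 0.181, or -0.23 with GC and length accounted for). Lrrc8a, the obligate subunit of volume-regulated anion channels, had 248, 156 and 224 normalized counts in controls and 472, 289.9 and 243 with irinotecan. Its log2 fold change of 0.65 (SE 0.285) was 0.37 without irinotecan replicate 1. Enpp3, a relative of Enpp1, had at most 9.68 normalized counts in any library and was not tested.

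The trafficking and turnover of STING is set by many general transport genes. All 28 listed were tested, and 12 were positive (median -0.02, or -0.03 to 0.05 with any 1 library left out). Rhbdf2, the inactive rhomboid protein iRhom2 that binds STING, had 847, 736 and 705 normalized counts in controls and 582, 608 and 589.9 with irinotecan. Its groups did not overlap, and its log2 fold change was -0.36 (SE 0.137), or -0.19 after the trend on GC and length was taken out. Usp18, a protease that removes the ubiquitin-like ISG15, had 253, 339 and 196 normalized counts in controls and 338, 405 and 417 with irinotecan (log2 fold change 0.59, SE 0.223). Of 17 adaptors and regulators of TBK1, 16 were tested and 10 were positive (median 0.11, or 0.0063 without irinotecan replicate 1). Nedd4, a ubiquitin ligase, differed by 0.39 (log2 fold change, SE 0.218) and Tbkbp1, which encodes a TBK1-binding protein, by -0.56 (SE 0.305). Both were smaller without irinotecan replicate 1, at 0.15 and -0.17.

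Other routes to TBK1 start from RNA sensors and Toll-like receptors. All 15 listed were tested and 8 were positive (median 0.08, or 0.17 without irinotecan replicate 1 and 0.0025 without control replicate 1). Ifih1, which encodes the RNA sensor MDA5, had 672, 818 and 699 normalized counts in controls and 935, 933 and 1033 with irinotecan. Its groups did not overlap (log2 fold change 0.41, SE 0.139, unadjusted p = 0.0174). Dhx58, which encodes the sensor LGP2, had a log2 fold change of 0.63 (SE 0.263), also without overlap, and 0.41 without control replicate 3. Among the 17 IRF and NF-kB factors, 11 were positive (median 0.03, or -0.08 without irinotecan replicate 1). Irf7, the interferon-induced partner of Irf3, had 578, 580.3 and 312 normalized counts in controls and 772, 781 and 881 with irinotecan (log2 fold change 0.78, SE 0.245, unadjusted p = 0.0121). Control replicate 3 was its lowest library, and its log2 fold change was 0.48 without it. Irf9, a subunit of the factor that type I interferon activates, had a log2 fold change of 0.43 (SE 0.200), or 0.22 without control replicate 3.

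Downstream, 7 of the 10 genes of the interferon receptor and JAK-STAT list were positive (median 0.22), and 9 were without irinotecan replicate 1 (median 0.14). Stat2 had 806, 1109 and 652 normalized counts in controls and 1167, 1232 and 1424 with irinotecan, without overlap (log2 fold change 0.60, SE 0.203). Of the 18 STING output genes, 13 were tested and 9 were positive (median 0.27). That median was 0.46 without irinotecan replicate 3 and ran from 0.19 to 0.46 over the libraries left out. Oasl2, an interferon-induced protein, had a log2 fold change of 0.62 (SE 0.225), and Nfkbia, the NF-kB inhibitor that NF-kB itself induces, of -0.42 (SE 0.168), or -0.28 without irinotecan replicate 1 and -0.21 with GC and length accounted for. Its groups did not overlap. The chemokine gene Cxcl10 had 215, 254 and 179 normalized counts in controls and 221, 394 and 487 with irinotecan. Irinotecan replicate 1 lay among the controls, and the log2 fold change of 0.70 (SE 0.296) was 1.03 without it and 0.46 without irinotecan replicate 3, its highest library. The chemokine gene Ccl5 had 50.5, 56.5 and 29.0 normalized counts in controls and 0, 64.5 and 111 with irinotecan. Its log2 fold change of -1.20 (SE 1.54) turned to 0.94 without irinotecan replicate 1. Isg15, a ubiquitin-like modifier, had 136, 138 and 94.9 normalized counts in controls and 190.0, 159 and 153 with irinotecan, without overlap (log2 fold change 0.46, SE 0.225, or 0.28 without control replicate 3). Ifit1, which binds viral RNA, had a log2 fold change of 0.72 (SE 0.333), or 0.40 without control replicate 3 and 1.11 without control replicate 2.

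Transcripts of Ifnb1, the interferon gene that IRF3 activates, were at the limit of detection. They gave 0, 3 and 0 recovered reads in the controls and 0, 2 and 1 with irinotecan. A count of 0 allows up to 3 reads, so no difference was detectable at this depth and no fold is given.

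**Figure D5:**
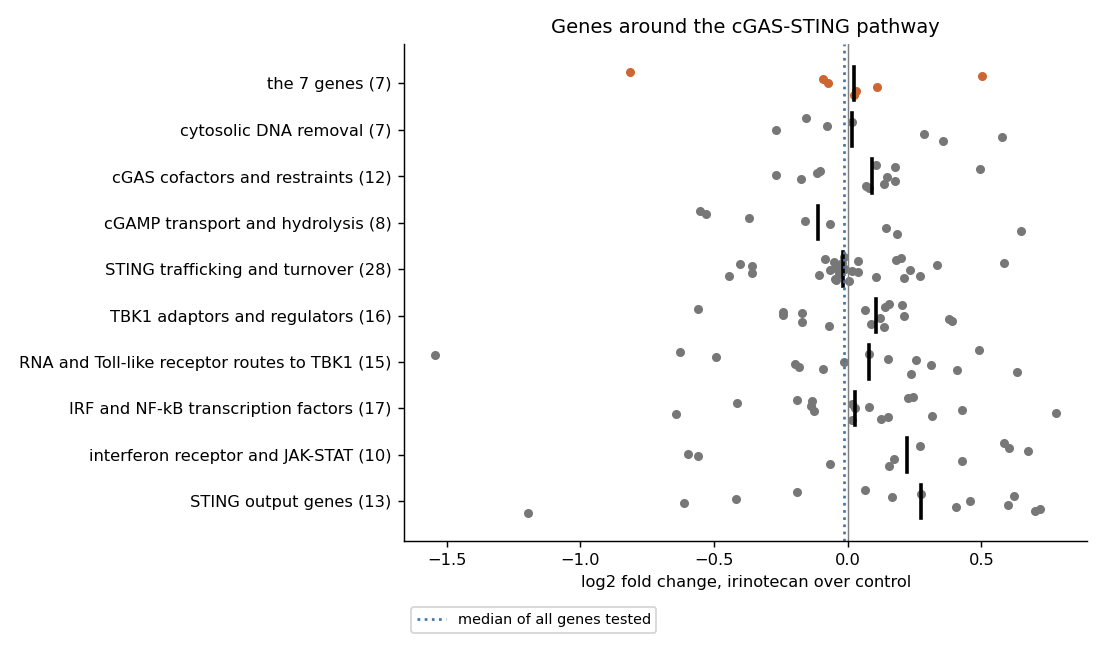
Log2 fold changes (irinotecan over control) of the 7 genes and of the tested members of the 9 surrounding lists, with the number of genes in brackets. Points are genes, black bars the list medians, and the dotted line the median of all genes tested (-0.01). The lists of interferon signalling (0.22) and of STING output genes (0.27) have the highest medians over the 6 libraries, whereas without irinotecan replicate 1 that of cytosolic DNA removal (0.24) is the highest.

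The protein-coding genes most like Mb21d1 over the 6 libraries, among 10753 compared with a mean of at least 50 normalized counts, were, by Pearson's r of log2 values, Mrc2 (0.978), Kmt2e (0.976) and Cbx1 (0.962). Those most like Tmem173 were Zfp839 (0.998), Zc3h4 (0.987) and Per1 (0.985). None of these 6 genes was in the pathway lists. The libraries of a pair share their scaling and depth. The range of Mb21d1 was small, with a coefficient of variation (2.64%) below that of counting alone (4.31%). How high the top values among 10753 genes run by chance over 6 libraries was not tested, so these values describe likeness only.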

How the data were processed

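Bulk RNA sequencing of 3 control and 3 irinotecan tumours was used. The submitters' processing notes list DESeq2 1.20.0, featureCounts 1.5.0-p3, HISAT2 2.0.5, fastp and CASAVA with GRCm38 (mm10) and give no roles. Strand setting and annotation release: not given in the sources used here. What the authors deposited is a normalized signal per gene, equal to read counts divided by 1 factor per library. Dividing each library by its smallest non-zero value gave whole numbers for 100% of values (tolerance 1e-06), taken as recovered reads. The deposited table also holds the authors' log2 fold changes and p-values.

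Planned for normalized values, limma 3.58.1 (R 4.3.3) with trend and empirical Bayes was fitted to log2(normalized count + 1) for 14639 genes with a mean of at least 10, with group as the only term, and p-values were adjusted by Benjamini-Hochberg over these genes and called under 0.05. Alternatives were edgeR 4.0.16, DESeq2 1.42.0 and limma-voom on recovered reads, TMM and quantile scaling, other pseudocounts, no filter, protein-coding genes only, library weights, a replicate block, each library left out, and removal of a smooth trend on transcript GC (GENCODE M21, 99.9% of genes) and gene length. Tests were first tested on simulated data. Intervals cover the spread between samples, and read floors counting error only.

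Named genes are all members, the 2 tested genes of each pathway list with the smallest unadjusted p, 5 fixed output genes, and the 3 genes most correlated with cGAS and with STING. Members and lists were chosen with earlier results of these data known. One list gene that the rule names is not reported here. Same-group libraries differed beyond counting noise (chi-square per degree of freedom at least 10.7).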

Additional observations from a re-analysis of the deposited data

How the results depend on the processing

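None of the 7 genes was called under any of the alternatives run. The count over all genes, 0 in the reported fit, was 29 higher and 23 lower with DESeq2, 30 higher and 22 lower with library weights, and between 0 and 2 higher and 0 lower with each library left out. Samhd1 (0.38 to 0.59), Enpp1 (-0.99 to -0.66), Mb21d1 (0.0063 to 0.05) and Tbk1 (0.0085 to 0.17) kept their direction in all 18 alternatives. Among these, the fits without a filter, with protein-coding genes only and with a replicate block return the same fold change by construction. They are therefore no check on direction. With each library left out, Tmem173 ran from -0.15 to 0.19, Ikbke from -0.19 to 0.11, and Irf3 from -0.31 to 0.24. With library weights Ikbke turned to 0.091 and Irf3 to 0.17, while removal of the GC and length trend turned Irf3 to 0.10. The log2 ratio of Ikbke to Tbk1 ran from -0.35 to 0.10 with each library left out. The median of the 7 genes ran from -0.15 to 0.11. Of 162 list medians under alternatives, 155 moved by less than the spread between replicates. Some could not move, since the replicate block returns every median unchanged. The spread also includes irinotecan replicate 1, and a shift from 0.02 to 0.24 for cytosolic DNA removal still fell within it. The count of 155 therefore does not show that the medians were stable.

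Same-numbered samples did not deviate together (r = -0.11, -0.0087 and -0.21). Since each group holds 3 samples and irinotecan replicate 1 stood apart, these values cannot decide whether the numbers pair the samples. With the replicate number as a block, limma called 0 genes higher and 0 lower (limma adjusted p = 0.905 for Samhd1 and for Enpp1). The log2 fold changes of the 7 genes were as without the block, which is fixed in advance because every block holds both groups equally. The planned ratio of Trex1 to cGAS was not run.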

Other observations

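The spread of Mb21d1 was small even for counting. Its coefficient of variation over the 6 libraries was 2.64%, below the 4.31% that its 525 to 557 recovered reads would give by counting alone, and 0.116% of the genes tested had a smaller one. The median over all genes tested was 20.4%. The other members had 11.0% (Tbk1), 15.0% (Ikbke), 16.0% (Tmem173), 21.3% (Samhd1), 23.6% (Irf3) and 32.0% (Enpp1), the last against 12.3% from counting alone. Mb21d1 was singled out after its values were seen.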
